A study of Mus musculus with 2 samples.

Results

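A set of 9 genes of prostaglandin and leukotriene metabolism was read in 1 single-cell library of untreated MC38 tumors (Control) and 1 library of irradiated MC38 tumors (IR). These were the 9 of 32285 genes in both count matrices whose symbol is Ptgs1, Ptgs2, Ptges, Ptger2, Ptger4, Hpgd, Alox5, Alox5ap or Ltc4s. MC38 is a mouse colon carcinoma line grown as a tumor in mice, labelled WT in both groups, and CD45+ (leukocyte) cells were sorted from the tumors. The IR tumors had received a single dose of 20 Gy and were collected 4 days later, and the Control tumors had received none. Each library pooled several tumors, so there was 1 library per group, no replicate and no test, and every difference given compares these 2 libraries only.

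Prostaglandins and leukotrienes are short-lived lipid signals made from arachidonic acid, which phospholipases release from membranes. The cyclooxygenases, encoded by Ptgs1 (COX-1, present in many resting cells) and Ptgs2 (COX-2, induced by inflammatory stimuli), make the common prostaglandin precursor, and Ptges encodes the microsomal enzyme that turns it into prostaglandin E2. Prostaglandin E2 acts through receptors that include EP2 (Ptger2) and EP4 (Ptger4), and 15-hydroxyprostaglandin dehydrogenase (Hpgd) inactivates it. In the other branch, 5-lipoxygenase (Alox5) works with its activating protein (Alox5ap) to make leukotriene A4, which leukotriene C4 synthase (Ltc4s) conjugates to glutathione. In tumors, prostaglandin E2 is best known for restraining T cell, NK cell and dendritic cell responses.

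The matrices held 48593879 unique molecular identifiers (UMIs, each 1 captured RNA molecule) in Control and 42406461 in IR. Cells were barcodes with at least 500 UMIs, at least 200 genes and at most 25% mitochondrial UMIs, 5043 in Control and 3578 in IR, with medians of 6777 and 7884 UMIs, and 7 barcode sequences occurred in both libraries. Cells were placed in 8 lineages, named for the marker genes of each gate and not from an annotation by the authors, 3721 cells (73.8%) in Control and 2731 (76.3%) in IR, of which 317 and 282 lay within 1.5 times of a gate limit. There were 30 Control and 51 IR basophils, 36 and 230 neutrophils, 555 and 1066 monocytes, 2104 and 425 macrophages, 108 and 114 conventional dendritic cells (DCs), 128 and 149 mature DCs, 429 and 284 T cells and 331 and 412 NK cells. Beside them stood 8 and 16 mast cells, 139 and 106 collagen-expressing cells, 19 and 8 B cells and 11 and 12 plasmacytoid DCs. A further 346 and 241 barcodes had markers of more than 1 lineage (mixed), and 799 and 464 cells were in no gate. The sample records also carry the narrower label CD45+CD11b+Ly6Chi, and the T cells, NK cells and collagen-expressing cells go against it. The 10 genes that set a gate most apart included its own markers, for example Mcpt8, Il4 and Cyp11a1 in basophils and S100a8, S100a9 and Retnlg in neutrophils.

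Levels are given as CPM, the UMIs of a gene per 1000000 UMIs of all cells of that lineage in that library, with an exact Poisson 95% interval that covers counting error only. A difference was called when the gene had at least 20 UMIs over both libraries, the 2 levels differed by at least 1.5-fold and their intervals did not overlap. Of 72 pairs of a gene and a lineage, 44 had 20 UMIs or more, 24 with a higher and 20 with a lower level in IR, and 5 were called higher and 5 lower. Over all genes in the 8 lineages pooled, 3.65% of pairs were called higher and 3.39% lower. The 5 higher calls were Ptgs2, Alox5ap and Ltc4s in T cells, Alox5ap in NK cells and Ptges in macrophages. The 5 lower calls were Ptgs2 in basophils and mature DCs, Alox5ap in mature DCs, and Ptgs1 and Ptger4 in macrophages.

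**Figure D1:**
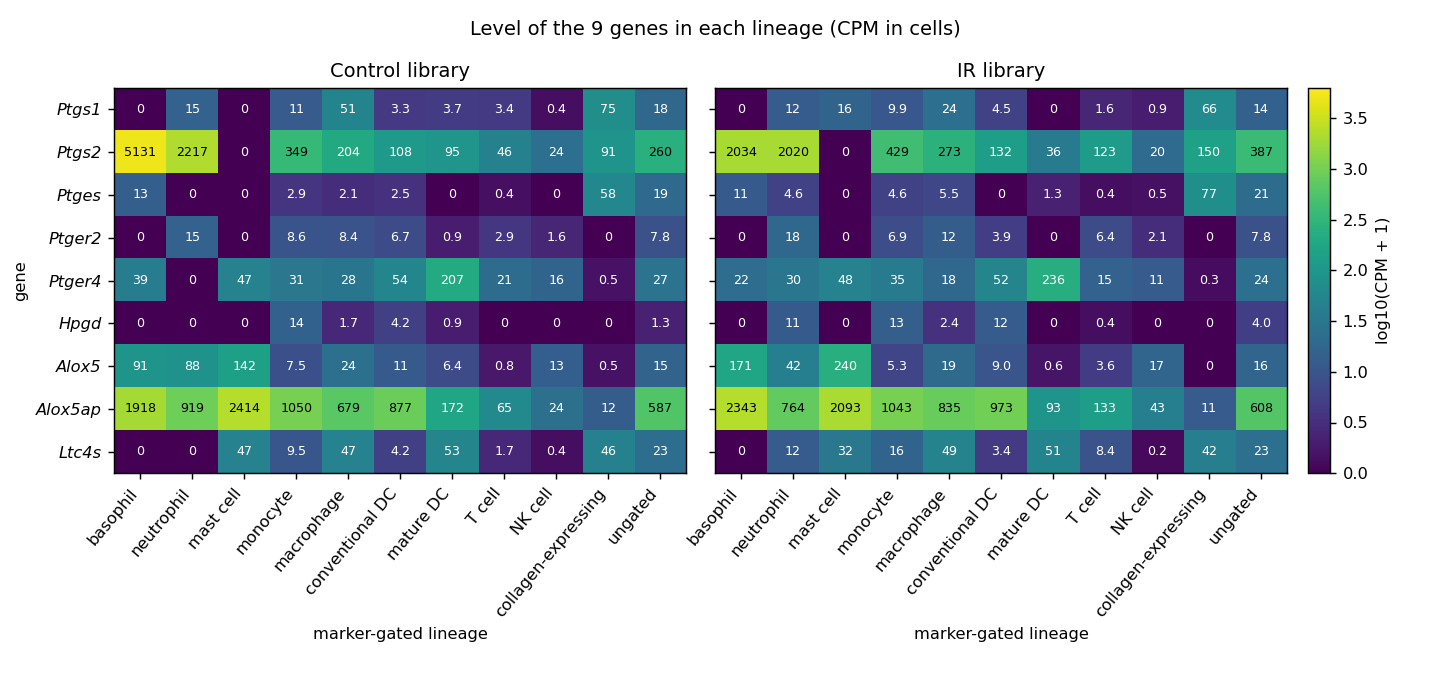
Level of each of the 9 genes (rows) in each lineage (columns) in the Control library (left) and the IR library (right), as CPM printed in the cells and as log10(CPM + 1) in color. Ptgs2 was highest in basophils and neutrophils (5131 and 2217 CPM in Control), and Ptger4 was highest in mature DCs (207 and 236 CPM). Alox5ap was spread over the myeloid lineages but was low in mature DCs (172 and 92.6 CPM).

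Ptgs2, the inducible cyclooxygenase, was by far most abundant in the granulocytes. In basophils its level was 5131 CPM (4638 to 5663, 396 UMIs) in the Control library and 2034 CPM (1832 to 2253, 369 UMIs) in the IR library. In neutrophils it was 2217 CPM (1878 to 2599, 152 UMIs) in the Control library and 2019.7 CPM (1936 to 2106, 2192 UMIs) in the IR library. Both granulocyte types therefore lay several-fold above every other lineage in either library, and basophils stood above neutrophils in Control while the 2 overlapped in IR. The 8 Control and 16 IR mast cells, the tissue relatives of basophils, had 0 Ptgs2 UMIs, where a count of 3, taken as the limit for 0, would be 142 CPM in the Control library and 47.9 CPM in the IR library.

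Among mononuclear phagocytes, Ptgs2 stood at 349 CPM (329.9 to 369) in the Control library and 429 CPM (417 to 442) in the IR library for monocytes. Macrophages had 204 CPM (198 to 210.2) and 273 CPM (258 to 288). In both lineages the IR interval lay above the Control interval, but the log2 ratios of 0.30 and 0.42 were under the 1.5-fold limit. Conventional DCs, which sample and present antigen, had 108 CPM in the Control library and 132 CPM in the IR library, with overlapping intervals (90.1 to 128 and 116 to 149.9). The descending order in Control was basophils, neutrophils, monocytes, macrophages, conventional DCs, mature DCs, T cells and NK cells, and in that order the neighbours conventional DCs and mature DCs had overlapping intervals.

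The log2 ratio of Ptgs2 in basophils, IR over Control, was -1.33 (-1.54 to -1.13), and of all genes with 20 UMIs in basophils 3.33% were called higher and 3.91% lower. Of the 3 members with 20 UMIs there, Ptgs2 was lower, and Alox5 and Alox5ap had positive ratios that were not called. After every cell was thinned to 1000 UMIs, 75.0% of Control basophils (21 of 28, exact binomial 95% interval 55.1% to 89.3%) and 54.9% of IR basophils (28 of 51, 40.3% to 68.9%) held a Ptgs2 UMI, and the intervals overlapped. Without thinning the shares were 93.3% and 66.7%. The same share in NK cells, taken as the background, was 1.24% in Control and 1.47% in IR, with median depths of 6652 and 6699.5 UMIs against 2548 and 3362 in basophils. Without the single basophil with the most Ptgs2 UMIs in each library (43 in Control and 31 in IR) the levels were 4730 CPM and 1903 CPM, a log2 ratio of -1.31. Macrophage markers summed to 376 CPM in the Control library and 171 CPM in the IR library for basophils, with 6 and 4 of 8 detected, and neutrophil markers to 168 and 187 CPM, with 3 and 6 of 10 detected. The TMM scaling of edgeR moves all basophil log2 ratios by 0.14 and all neutrophil ratios by 0.31, and under it Ptgs2 in basophils kept its sign.

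In neutrophils Ptgs2 was not called (log2 ratio -0.13, -0.37 to 0.11), and 4.06% of all genes tested there were called higher and 3.67% lower. The sign depends on the scaling: under TMM the log2 ratio was 0.18, and as a mean over cells it was 0.35. At 1000 UMIs per cell, 71.9% of Control neutrophils (23 of 32, 53.3% to 86.3%) and 73.5% of IR neutrophils (164 of 223, 67.2% to 79.2%) held a Ptgs2 UMI. None of the 5 members with 20 UMIs in neutrophils was called.

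**Figure D2:**
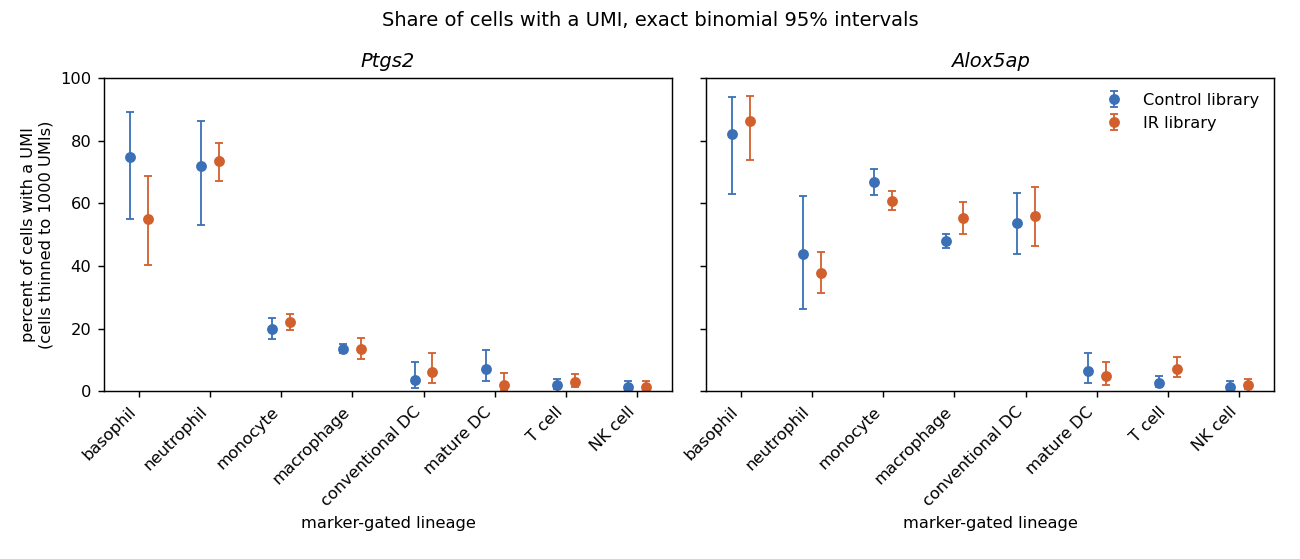
Percent of cells with at least 1 Ptgs2 UMI (left) or Alox5ap UMI (right) after each cell was thinned to 1000 UMIs, by lineage, with exact binomial 95% intervals (blue, Control library, and orange, IR library). For Ptgs2, 54.9% to 75.0% of basophils and neutrophils were positive, against 13.4% to 22.2% of monocytes and macrophages, and under 8% in the other lineages.

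In monocytes and macrophages Ptgs2 was carried by a minority of cells. The 10% of monocytes with the most Ptgs2 held 68.5% of the Ptgs2 UMIs in Control and 58.7% in IR, and the same 10% of macrophages held 70.7% and 76.3%. At 1000 UMIs per cell, 19.9% of Control monocytes (16.6% to 23.5%) and 22.2% of IR monocytes (19.7% to 24.8%) were positive, with overlapping intervals, and 13.6% and 13.4% of macrophages. The 6 genes that set Ptgs2-positive monocytes most apart in IR, named after their values were seen like those given for other members, were read again in Control, which had no part in their choice. Inhba, a subunit of activin A, had 345 CPM in positive and 66.2 CPM in negative IR monocytes, and 174 CPM and 27.5 CPM in Control. Il1a, the cytokine interleukin-1 alpha, had 212 and 39.8 CPM in IR and 76.0 and 11.8 CPM in Control. The neutrophil marker S100a9 was also higher in the positive cells, 129 against 8.28 CPM in IR and 23.0 against 6.74 CPM in Control, and the cytotoxic cell gene Gzma was higher in IR (229 against 17.0 CPM) but lower in Control (14.7 against 155 CPM). Positive cells were deeper, with medians of 9282 and 6966 UMIs in IR. Neutrophil markers summed to 300 CPM in the Control library and 642 CPM in the IR library for monocytes, with all 10 detected in both, and to 183 and 466 CPM in macrophages, with 10 and 9 detected. Their part in the Ptgs2 values of these lineages was not tested.

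Mature DCs and T cells had low Ptgs2 levels that differed in opposite directions. In mature DCs, migratory cells that carry antigen, the level was 95.5 CPM (78.0 to 116, 104 UMIs) in the Control library and 35.5 CPM (26.8 to 46.1, 56 UMIs) in the IR library, a log2 ratio of -1.43. At 1000 UMIs per cell 7.2% of Control (9 of 125, 3.35% to 13.2%) and 2.03% of IR mature DCs (3 of 148, 0.420% to 5.81%) held a UMI, with overlapping intervals. The highest cell held 17.3% of the UMIs in Control and 32.1% in IR, and without it the log2 ratio was -1.75. Over all genes tested in mature DCs 3.93% were called higher and 2.9% lower, and 2 of the 4 members with 20 UMIs were called lower. Macrophage markers in the mature DC gate were also lower in IR (432 CPM in Control against 139.6 CPM) with all 8 detected in both, whereas monocyte markers there were higher, 408 CPM in Control against 735 CPM, also with all 8 detected. The part of either list in the result was not tested. In T cells the level was 45.8 CPM (37.6 to 55.2, 109 UMIs) in the Control library and 123 CPM (110.0 to 138, 308 UMIs) in the IR library, a log2 ratio of 1.43. One IR T cell with 85 UMIs held 27.6% of them, and without the highest cell of each library the levels were 37.2 and 90.1 CPM. At 1000 UMIs per cell only 1.98% (0.859% to 3.86%) of Control and 2.89% (1.25% to 5.61%) of IR T cells held a UMI, and the NK cell shares lay within both intervals. By an estimate from C1qa, C1qb and C1qc, free RNA would give 2.59 CPM of Ptgs2 in Control and 2.35 CPM in IR T cells. T cells with more UMIs of these and other myeloid markers had been set aside as mixed. The estimate can therefore be too low and is no upper limit. Neutrophil markers in the T cell gate went from 118 CPM (6 of 10 detected) to 307 CPM (9 of 10), and macrophage markers from 141 to 61.3 CPM. Among T cells with no UMI of 12 myeloid markers, 213 in Control and 205 in IR, Ptgs2 was at 9.14 CPM (9 UMIs) and 27.3 CPM (38 UMIs).

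The upstream sequences of the cyclooxygenase pair are shown because the 2 genes make the same product and, while both were found in macrophages and collagen-expressing cells, Ptgs2 alone had its highest levels in granulocytes. They are the 250 bases before the RefSeq start of each gene on GRCm38.p6, plus strand, chr1:150099781-150100030 for Ptgs2 and chr2:36230176-36230425 for Ptgs1, with matches to the motifs searched in capitals.
Ptgs2: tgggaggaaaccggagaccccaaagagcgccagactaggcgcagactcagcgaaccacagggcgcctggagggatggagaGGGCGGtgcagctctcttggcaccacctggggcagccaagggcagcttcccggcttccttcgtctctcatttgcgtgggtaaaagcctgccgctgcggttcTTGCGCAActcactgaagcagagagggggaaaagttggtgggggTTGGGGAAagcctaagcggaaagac
Ptgs1: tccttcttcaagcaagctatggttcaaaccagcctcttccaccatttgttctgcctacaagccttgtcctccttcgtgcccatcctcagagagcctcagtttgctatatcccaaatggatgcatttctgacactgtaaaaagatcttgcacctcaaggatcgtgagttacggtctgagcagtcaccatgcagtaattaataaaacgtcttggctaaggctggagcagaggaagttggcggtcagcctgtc
The motifs, read on both strands, were the CRE core TGACGT, the E-box CACGTG, the C/EBP letters TTNNGNAA, the NF-kB motif, the AP-1 letters TGANTCA, the GC box GGGCGG and TATAAA. Ptgs2 held the C/EBP letters at 2 places and the GC box at 1, where 36.8% and 32.7% of 32851 windows of the same length hold each, and Ptgs1 held none of the 7 motifs. In the 300-base window that includes the first transcribed bases, Ptgs2 also held the CRE core and the E-box once each, overlapping one another, against 7.51% and 7.15% of windows, and Ptgs1 again none. RefSeq windows were matched for 8 of the 9 genes, all but Alox5ap. Ptgs2 (ENSMUSG00000032487) lies on chromosome 1 from 150100031 to 150108227 and overlaps no other gene of GENCODE vM21, and Ptgs1 (ENSMUSG00000047250) on chromosome 2 from 36230426 to 36252272, with Gm43621 on the opposite strand.

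Ptgs1, the constitutive cyclooxygenase, was highest in macrophages and collagen-expressing cells. Macrophages had 50.8 CPM (47.8 to 54.1, 1017 UMIs) in the Control library and 23.6 CPM (19.5 to 28.3, 116 UMIs) in the IR library, a log2 ratio of -1.11 (-1.40 to -0.83). Over all genes tested in macrophages 4.49% were called higher and 5.99% lower. Collagen-expressing cells, a gate for non-immune cells, had 74.8 CPM (63.0 to 88.3) and 66.4 CPM (57.7 to 76.1), with overlapping intervals. Monocytes had 11.2 and 9.87 CPM, also overlapping, so within the monocyte and macrophage lineages the lower level was seen in macrophages only by this rule, and the difference between the 2 lineages was not tested. At 1000 UMIs per cell 5.19% of Control macrophages (4.27% to 6.25%) and 2.53% of IR macrophages (1.22% to 4.61%) held a Ptgs1 UMI. The macrophage gate itself differed between the libraries: monocyte markers summed to 978 CPM in the Control library and 1787 CPM in the IR library, with all 8 detected in both, and their part in the Ptgs1 result was not tested. Ptgs1-positive Control macrophages were higher in proliferation genes, and this held for 5 of the 6 genes when they were read in IR, where Ube2c had 126 CPM in 72 positive and 27.8 CPM in 353 negative cells and Cenpf 29.1 and 9.35 CPM, but Tk1 16.3 and 16.8 CPM. The positive cells were deeper (medians of 10973 and 7505 UMIs in Control). Basophils had 0 Ptgs1 UMIs in both libraries, where 3 counts would be 38.9 CPM in the Control library and 16.5 CPM in the IR library.

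**Figure D3:**
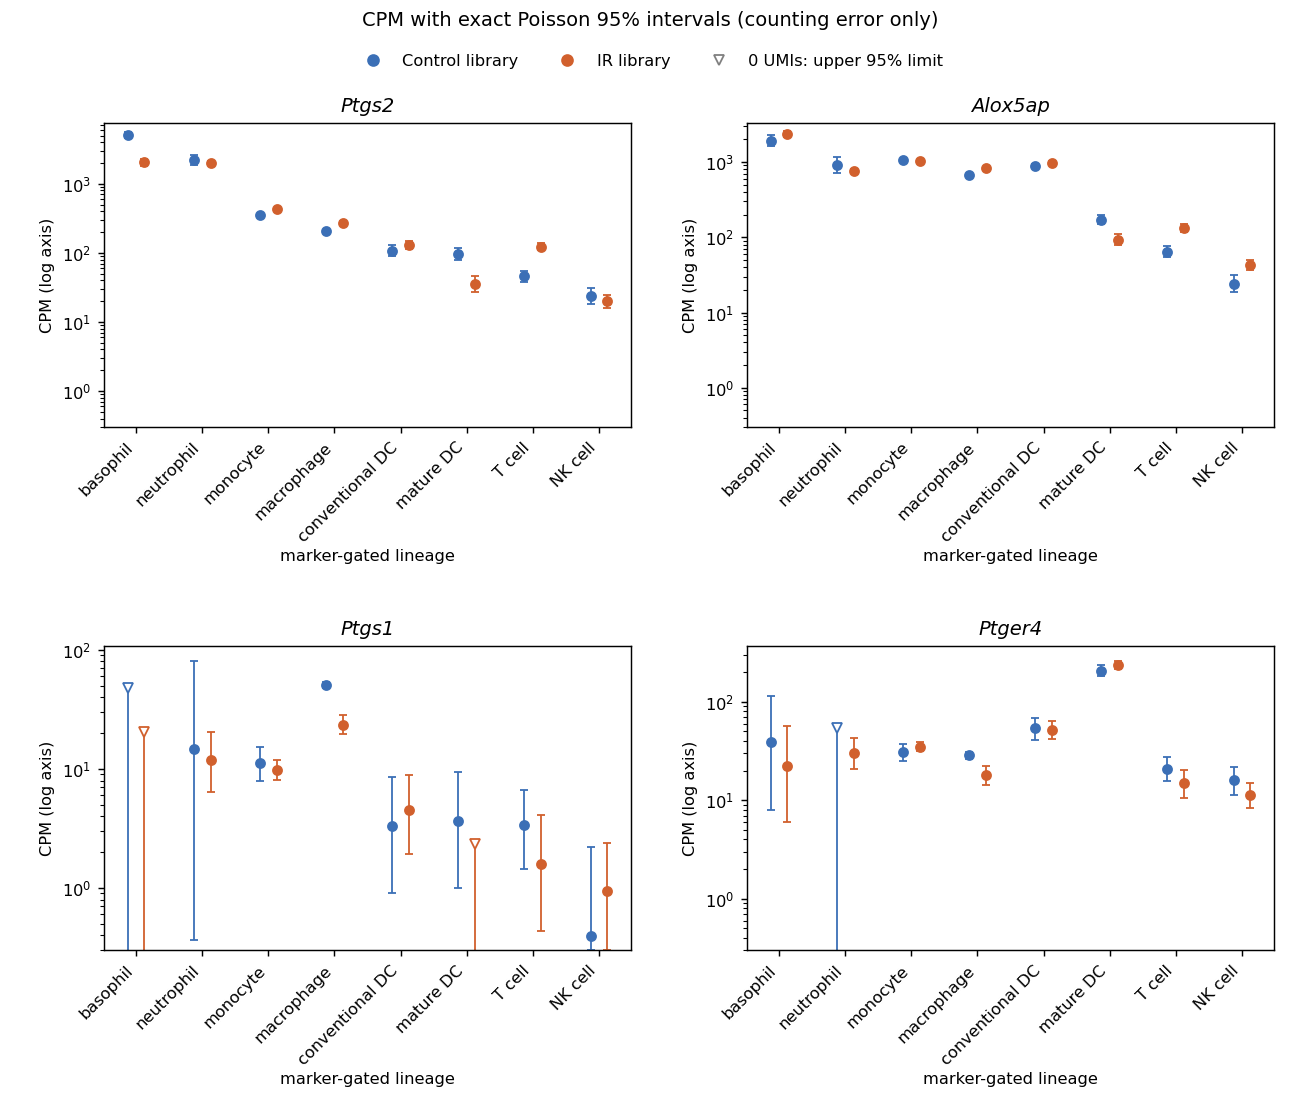
CPM of Ptgs2, Alox5ap, Ptgs1 and Ptger4 in the 8 lineages on log axes, Control library in blue and IR library in orange, with exact Poisson 95% intervals and open triangles at the upper 95% limit where a lineage had 0 UMIs. The intervals of the 2 libraries are apart for, among others, Ptgs2 in basophils and T cells, Ptgs1 in macrophages and Alox5ap in mature DCs. Of these named pairs, only Ptgs2 in T cells is higher in IR. The intervals overlap for Ptger4 in mature DCs.

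Ptges, the synthase that makes prostaglandin E2 from the cyclooxygenase product, had its highest level in collagen-expressing cells. Collagen-expressing cells had 58.4 CPM (48.0 to 70.4) in the Control library and 76.7 CPM (67.3 to 87.0) in the IR library and held 40.7% and 55.2% of all Ptges UMIs. Ungated cells had 19.0 and 20.8 CPM. Within them the 29 Ptges-positive Control cells were set apart by genes that the 28 positive IR cells shared, among them Tm4sf1 (632 CPM in positive and 27.9 CPM in negative IR cells), Tubb3 (765 and 38.2 CPM) and Cald1 (305 and 35.7 CPM), and Tm4sf1 and Tubb3 were also among the leading genes of the collagen-expressing gate, while Mzb1, also chosen in Control, had 0 CPM in IR. Macrophages had 2.10 CPM (1.51 to 2.84, 42 UMIs) in the Control library and 5.50 CPM (3.62 to 8.00, 27 UMIs) in the IR library, a call (log2 ratio 1.39) that rests on few molecules. Monocytes had 2.87 and 4.64 CPM from 10 and 48 UMIs, which were not called. Basophils and neutrophils, the cells with the most Ptgs2, had too few Ptges UMIs to place their level: basophils had 1 UMI in Control (12.96 CPM, 0.328 to 72.2) and 2 in IR (11.03 CPM, 1.34 to 39.8), and neutrophils 0 and 5, where 3 counts in Control neutrophils would be 43.8 CPM. Collagen markers in macrophages were at 11.3 CPM in the Control library and 10.2 CPM in the IR library. Of all genes tested in collagen-expressing cells 3.23% were called higher and 3.62% lower, and of the members Ptgs2 alone was called there, from 91.3 CPM (78.2 to 106) to 150.5 CPM (137 to 165). These cells differed in depth between the libraries (medians of 5792 and 29495.5 UMIs), and at 1000 UMIs per cell 7.37% and 7.61% of them held a Ptgs2 UMI.

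Of the prostaglandin E2 receptors, Ptger4 (EP4) had its highest level in mature DCs, but other lineages held much of it. Macrophages held 42.9% of its UMIs in Control and 6.97% in IR, monocytes 8.05% and 28.5%, and mature DCs 16.9% and 29.5%. Mature DCs had 207 CPM (180.4 to 235) in the Control library and 236 CPM (213 to 261) in the IR library, with overlapping intervals, which was the highest level of any lineage in both libraries. Of the 8 lineages, conventional DCs came next with 53.6 and 52.2 CPM. Monocytes had 30.8 and 34.8 CPM, T cells 21.0 and 14.8 CPM and NK cells 15.9 and 11.2 CPM. In each of these lineages the intervals of the 2 libraries overlapped. Macrophages differed, with 28.5 CPM (26.2 to 30.9, 570 UMIs) in the Control library and 17.9 CPM (14.4 to 22.1, 88 UMIs) in the IR library, a log2 ratio of -0.67 (-1.01 to -0.34). Of the 9 members in macrophages, all with 20 UMIs, 1 was called higher and 2 lower, where 4.49% of all genes were called higher and 5.99% lower. Neutrophils had 0 UMIs in Control and 33 in IR (30.4 CPM), a difference that was not detectable at this depth, since 3 counts in the Control neutrophils would be 43.8 CPM. At 1000 UMIs per cell 22.4% of Control (15.4% to 30.7%) and 22.3% of IR mature DCs (15.9% to 29.9%) held a Ptger4 UMI. Il12b, a subunit of interleukin-12, was higher in the mature DCs above the median Ptger4 share, 332 against 139 CPM in IR, where it was chosen, and 861 against 318 CPM in Control, whereas Hmox1, chosen likewise, was at 79.4 and 23.8 CPM in IR and at 14.6 and 377 CPM in Control.

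Ptger2 (EP2) was low throughout. Its levels were 8.45 CPM in the Control library and 12.2 CPM in the IR library for macrophages, 8.62 and 6.87 CPM in monocytes, and 17.5 CPM (19 UMIs) in IR neutrophils, and none of the 4 lineages with 20 UMIs was called. Mature DCs held 1 Ptger2 UMI in Control and 0 in IR.

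Hpgd, the enzyme that inactivates prostaglandin E2, had the largest share of its UMIs in monocytes (46.2% in Control and 62.5% in IR), with 14.1 CPM (10.4 to 18.6, 49 UMIs) in the Control library and 13.1 CPM (10.95 to 15.5, 135 UMIs) in the IR library. Over all genes tested in monocytes 3.63% were called higher and 2.07% lower, and none of the 9 members, all with 20 UMIs there, was called. Conventional DCs had 4.18 CPM (5 UMIs) and 11.8 CPM (21 UMIs), not called, where 3.19% of all genes were called higher and 3.27% lower and none of 5 members was called. IR neutrophils had 11.1 CPM (5.71 to 19.3, 12 UMIs), and in IR the intervals of monocytes, conventional DCs and neutrophils overlapped. Macrophages held 33.0% of Hpgd UMIs in Control at 1.75 CPM. Hpgd-positive IR monocytes were set apart by Ace, the angiotensin-converting enzyme found on non-classical (patrolling) monocytes, and by Adgre4, Ear2 and Eno3. Read in Control, where 30 positive and 525 negative monocytes were compared, Ace had 189 and 43.5 CPM, Adgre4 50.5 and 26.8 CPM, Ear2 135 and 74.7 CPM and Eno3 33.6 and 11.1 CPM. Cd209a and Areg, also chosen in IR, went the other way in Control.

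Alox5ap, the protein that presents arachidonic acid to 5-lipoxygenase, was the most widely spread of the 9 genes. Basophils had 1918 CPM (1621 to 2253) in the Control library and 2343 CPM (2125 to 2577) in the IR library, mast cells 2414 and 2093 CPM, monocytes 1049.6 and 1043 CPM, conventional DCs 877 and 973 CPM, neutrophils 919 and 764 CPM and macrophages 679 and 835 CPM. Among these, the macrophage intervals did not overlap (667 to 690.1 and 809 to 861), and the log2 ratio of 0.30 was under the limit for a call. After thinning, 48.1% of Control macrophages (45.9% to 50.3%) and 55.4% of IR macrophages (50.4% to 60.4%) held an Alox5ap UMI, and in monocytes the share was 66.9% (62.8% to 70.9%) in Control and 60.9% (57.9% to 63.9%) in IR.

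Alox5ap was called in mature DCs, T cells and NK cells, the 3 of the 8 lineages with its lowest levels. Mature DCs had 172 CPM (148 to 198) in the Control library and 92.6 CPM (78.2 to 109) in the IR library. One Control cell held 24.6% of the UMIs, and after removal of the 6% of cells with the highest doublet score the log2 ratio went from -0.89 to -0.38. T cells had 64.7 CPM (54.8 to 75.7) and 133 CPM (119 to 148), a log2 ratio of 1.04, and 9.14 and 26.5 CPM when cells with a myeloid UMI were left out. After thinning, 2.72% of Control T cells (1.37% to 4.82%) and 7.22% of IR T cells (4.47% to 10.9%) held an Alox5ap UMI, with overlapping intervals, beside 1.24% and 1.97% of NK cells. NK cells had 24.2 CPM (18.5 to 31.1) and 42.8 CPM (36.9 to 49.5), a log2 ratio of 0.82, which fell to 0.35 without the 6% of highest doublet score and to 0.21 as a mean over cells. Of 5 members with 20 UMIs in T cells 3 were called higher, where 4.21% of all genes were called higher and 2.07% lower, and of 4 in NK cells 1, where 2.12% were higher and 3.26% lower. Monocyte markers in the T cell gate went from 1301 to 2244 CPM and in the NK cell gate from 1343 to 1506 CPM, all 8 detected in each. Macrophage markers were lower in IR in both gates, 141 and 61.3 CPM in T cells and 114 and 29.7 CPM in NK cells, again with all 8 detected. The part of either list in these results was not tested.

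Alox5, the lipoxygenase itself, had at most 71 UMIs in any lineage but macrophages, of the 8 lineages and mast cells. Basophils had 90.7 CPM (36.5 to 187, 7 UMIs) in the Control library and 171 CPM (116 to 243, 31 UMIs) in the IR library, and mast cells 142 and 239.7 CPM from 3 and 15 UMIs. Neutrophils had 87.5 CPM (32.1 to 190.5, 6 UMIs) and 42.4 CPM (31.0 to 56.5, 46 UMIs). Macrophages had 24.4 CPM (22.3 to 26.7) and 19.3 CPM (15.7 to 23.6). NK cells had 12.7 and 16.6 CPM, and 18.4 and 17.6 CPM when only cells with no myeloid UMI were counted, whereas T cells had 0.840 and 3.61 CPM from 2 and 9 UMIs. None of the 6 lineages with 20 UMIs was called.

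Ltc4s, which makes leukotriene C4, had overlapping intervals between the libraries in the lineages where it was highest. Macrophages had 47.0 CPM (44.0 to 50.1, 940 UMIs) in the Control library and 49.5 CPM (43.5 to 56.1, 243 UMIs) in the IR library, a log2 ratio of 0.07 (-0.13 to 0.28). Mature DCs had 53.2 and 50.8 CPM and collagen-expressing cells 46.2 and 41.7 CPM, again with overlapping intervals. Monocytes had 9.49 CPM (6.53 to 13.3) and 15.6 CPM (13.3 to 18.2), not called. The call in T cells (4 UMIs in Control and 21 in IR) came from 1 IR cell with 19 UMIs, and without the highest cell of each library the log2 ratio turned from 2.33 to -0.66. Basophils, known as producers of leukotriene C4, had 0 Ltc4s UMIs in 30 Control and 51 IR cells. For them 3 counts would be 38.9 CPM in the Control library and 16.5 CPM in the IR library. The exact Poisson upper limits for these counts of 0 were 47.8 CPM in Control and 20.3 CPM in IR. In IR this limit lay below the macrophage interval, but in Control it lay within the macrophage interval. Control basophils could therefore not be placed below Control macrophages at this depth. Mgst2, which encodes another enzyme able to make leukotriene C4, was also at 0 UMIs in basophils of both libraries. For it 3 counts are again 38.9 and 16.5 CPM, so a low level in basophils could not be told from 0.

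Ltc4s marked a subset of macrophages. Genes that set the 361 Ltc4s-positive Control macrophages apart were Lyve1, a hyaluronan receptor, Folr2, a folate receptor, both known from tissue-resident perivascular macrophages, and Retnla, a gene of alternative activation. Read in IR, in 65 positive and 360 negative cells, Lyve1 had 38.2 and 3.46 CPM, Folr2 162 and 27.7 CPM and Retnla 2105 and 34.1 CPM. Mucl1, Cd209f and Cd209g, also chosen in Control, had 0 CPM in the positive IR cells.

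**Figure D4:**
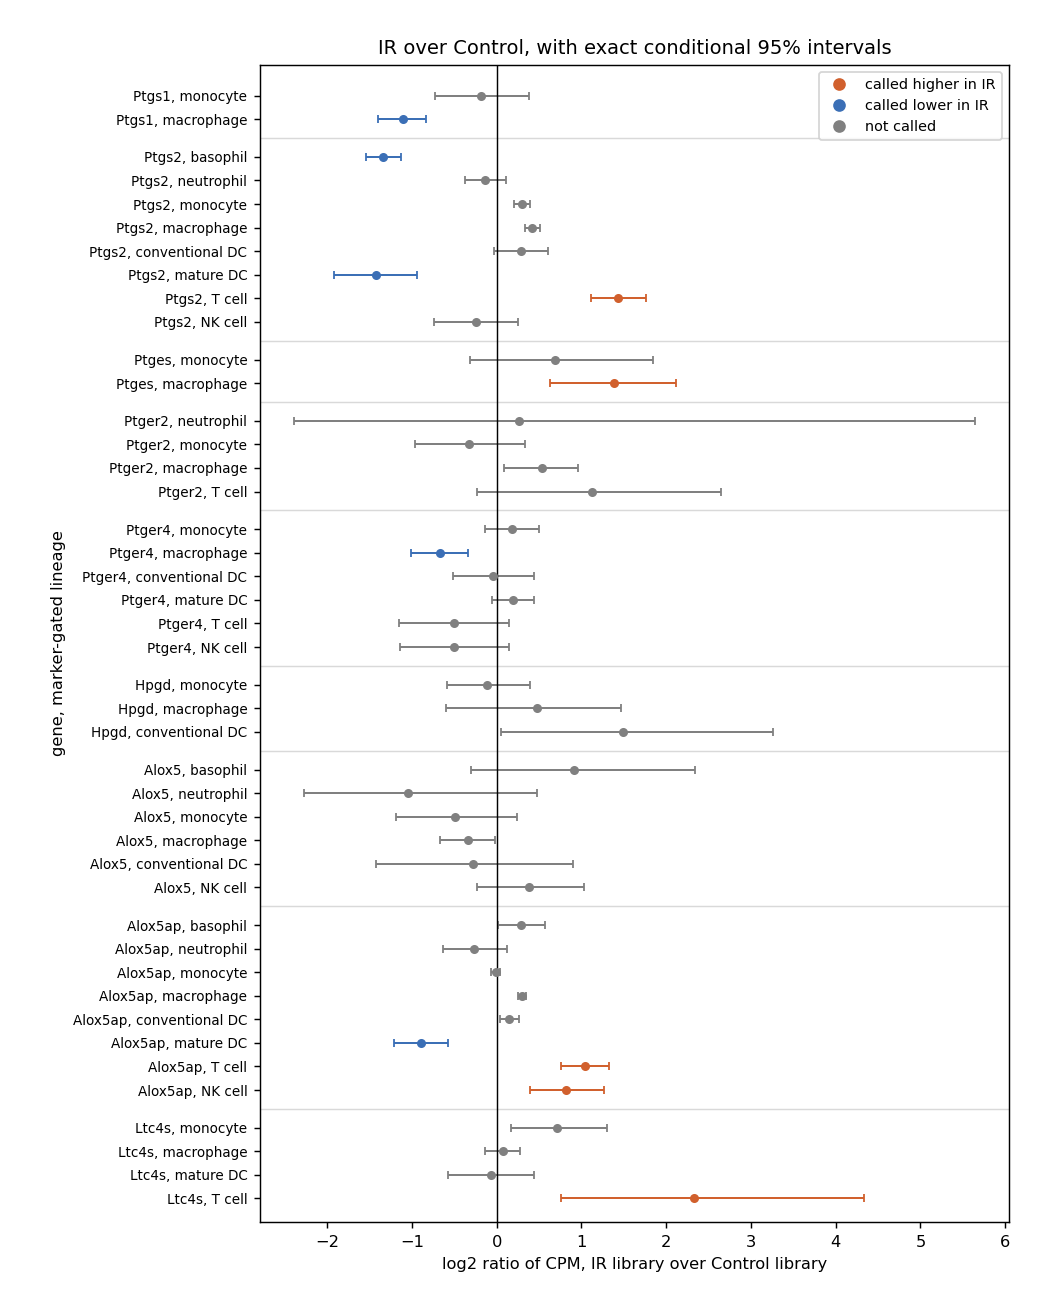
Log2 ratio of CPM, IR library over Control library, for the pairs of a gene and a lineage with at least 20 UMIs over both libraries and UMIs in each, with exact conditional 95% intervals. Orange marks the 5 pairs called higher in IR, blue the 5 called lower and grey the rest, and the wide intervals belong to pairs with few UMIs in Control.

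Over the whole library, part of the Ptgs2 difference went with composition, taken here as the share of all UMIs in each lineage or other gate. This share depends on cell numbers and on depth per cell. Collagen-expressing cells, for example, were 2.76% of cells in Control and 2.96% in IR, but 4.51% and 8.21% of UMIs. Ptgs2 had 200.4 CPM over all kept Control cells and 328 CPM over all kept IR cells, a log2 ratio of 0.71. With Control levels in each lineage and the IR composition the value would have been 277 CPM, and with IR levels and the Control composition 272 CPM, log2 ratios of 0.47 and 0.44. Neutrophils were 1.81% of Ptgs2 UMIs in Control and 17.6% in IR, monocytes 14.5% and 35.6%, and macrophages 48.7% and 10.8%. Basophils held 4.73% and 2.96% of Ptgs2 UMIs from 0.185% and 0.478% of all UMIs.

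For Ltc4s the library level was lower in IR, 32.5 against 21.2 CPM (log2 ratio -0.62), with -0.65 from composition alone and 0.01 from levels alone. Ptgs1 had 34.2 and 14.5 CPM (log2 ratio -1.24), with -0.63 and -0.93. Hpgd went from 2.54 to 5.69 CPM (1.17), with 0.89 and 0.49. Alox5ap, at 566 and 621 CPM, Ptger4, at 31.8 and 33.3 CPM, and Ptger2, at 6.51 CPM in both, differed less. The cells that held the UMIs also differed, and macrophages held 71.1% of Ptgs1 UMIs in Control and 21.1% in IR, where collagen-expressing cells held 37.6%, and mature DCs held 16.9% and 29.5% of Ptger4 UMIs.

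**Figure D5:**
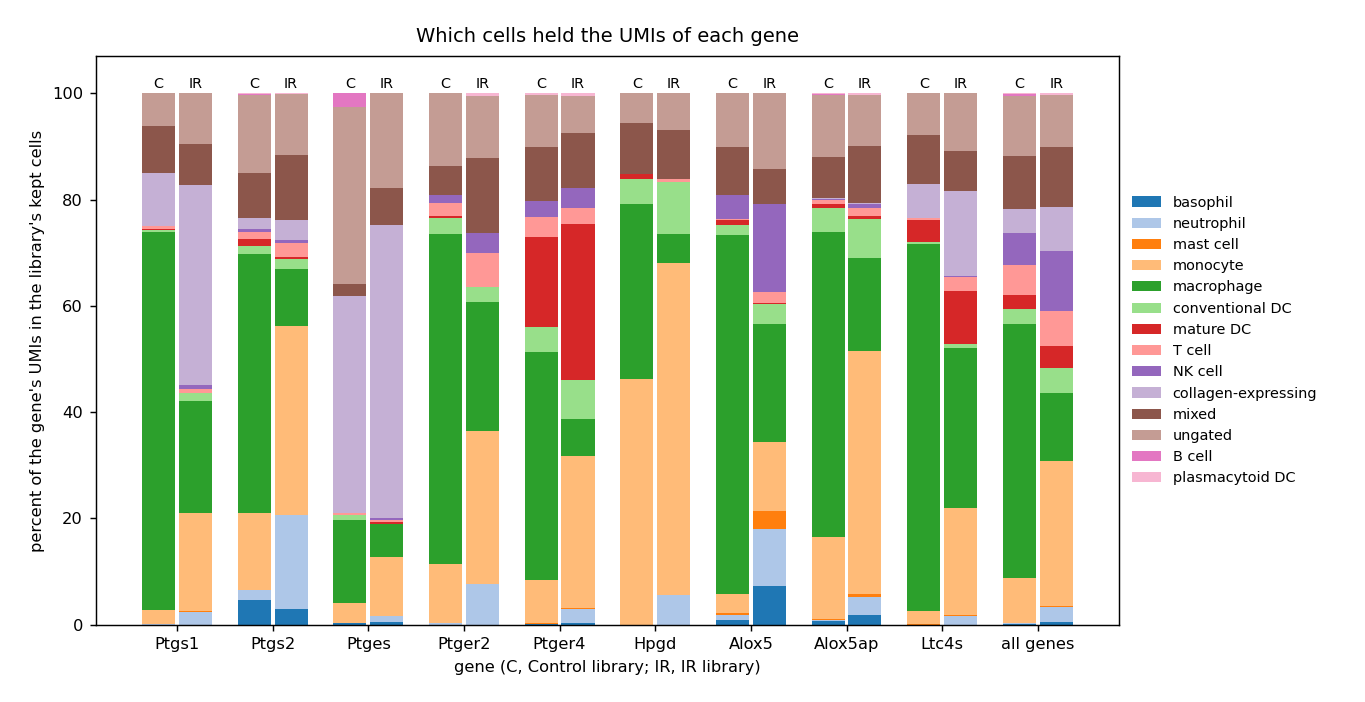
Percent of the UMIs of each gene, and of all genes (last pair), that lay in each lineage, as stacked bars for the Control library (C) and the IR library (IR). For Ptgs2 the macrophage share was 48.7% in Control and 10.8% in IR and the neutrophil share 1.81% and 17.6%, and for Ptges the collagen-expressing cells held 40.7% and 55.2%.

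Other genes of these pathways were taken from 7 lists of 43 genes, of which 42 had a single matching row, and gave 114 pairs of a gene and a lineage with 20 UMIs. Of these, 5 were called higher and 3 lower in IR, against the 3.65% and 3.39% over all genes, and 6 of the 8 were in macrophages, which had 24 of the 114 pairs and, over all genes, the largest shares called of the 8 lineages (4.49% higher and 5.99% lower). Pla2g7, which encodes a secreted phospholipase that degrades platelet-activating factor, had 124 CPM (119 to 129) in the Control library and 309.7 CPM (294 to 326) in the IR library for macrophages, and was also called higher in T cells (14 and 57 UMIs). Ltb4r1, the leukotriene B4 receptor BLT1, had 119 CPM (114 to 123) and 191 CPM (179 to 203) in macrophages. Hpgds, a hematopoietic prostaglandin D2 synthase, had 21.7 CPM (19.7 to 23.8) and 8.15 CPM (5.82 to 11.1) there. Mgst2 (41 and 23 UMIs), Alox15 (12 and 18 UMIs) and Pla2g2d (24 and 0 UMIs) were called in macrophages on small counts, the first 2 higher and the last lower.

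By list, arachidonate release, a list of phospholipases, had 2 pairs called higher and 1 lower of 22. The 2 higher pairs were Pla2g7, described above as degrading platelet-activating factor, so they do not speak for release of arachidonic acid. Prostanoid synthases had 2 lower of 29 and leukotriene synthesis 1 higher of 20. Leukotriene receptors had 1 higher of 18 and other lipoxygenases 1 higher of 2. None of 5 prostanoid receptor pairs and none of 18 pairs of prostaglandin transport and breakdown was called. Tbxas1, thromboxane synthase, was called lower in conventional DCs, 87.9 CPM (71.9 to 106) in the Control library and 57.2 CPM (46.7 to 69.5) in the IR library, and had 112 and 92.0 CPM in macrophages. Of genes named after their values were seen, Pla2g4a, the cytosolic phospholipase that frees arachidonic acid, had 40.6 and 47.0 CPM in macrophages and 35.1 and 38.7 CPM in monocytes, not called in either. Ptger3, the EP3 receptor, was found mainly in basophils, with 9 UMIs (117 CPM) in Control and 13 UMIs (71.7 CPM) in IR. The median log2 ratio of the 9 members with 20 UMIs was 0.30 in macrophages and -0.01 in monocytes, beside -0.07 and -0.04 over all genes tested in those lineages.

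The genes whose levels over lineages were most like each member were found by Pearson's r of log2(CPM + 10) over 14 points, each a lineage in 1 library with at least 50 cells, among 9679 genes with at least 200 UMIs. Collagen-expressing cells, which had the highest Ptgs1 and Ptges levels, were not among the points. The points share 2 libraries and differ in depth, so r is a description. Nearest to Ptgs2 was Nlrp3, an inflammasome sensor (r = 0.97), followed by Rffl and Ier3. Nearest to Alox5ap were Atp6ap2, Stx3 and Gsn, to Ptgs1 the complement genes C4b and C1ra and Gask1b, to Ptger4 Rogdi, Polb and Fnbp1l, to Hpgd AI839979, Adgre4 and Gm9733, and to Ltc4s Nrp2, Lix1l and Tnfrsf11a. Nearest to Ptger2 were Entpd1, Cln3 and Cd300ld, and to Alox5 Egr1, Aqp9 and Fosl1, the last of these with r of at most 0.88. Ptges had only 144 UMIs, under the 200 asked of the compared genes. Its level at the points was at most 11.03 CPM (IR basophils, 2 UMIs), beside the 10 CPM added. Its nearest genes, Mindy1, Irak3 and Lilr4b (r from 0.92 to 0.90), therefore rest on few Ptges molecules, and no likeness is read from them.

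The remaining genes lie on chromosome 2 from 30889471 to 30929863 (Ptges), chromosome 14 from 44988195 to 45003820 (Ptger2), chromosome 15 from 5206661 to 5244187 (Ptger4), chromosome 8 from 56294585 to 56321043 (Hpgd), chromosome 6 from 116410077 to 116461178 (Alox5), chromosome 5 from 149264767 to 149288153 (Alox5ap) and chromosome 11 from 50236461 to 50238616 (Ltc4s) of GRCm38. Ptges overlaps Gm13400 and Hpgd overlaps Gm45540 on the same strand, so reads of these pairs could be shared or dropped in counting. Ptger2, Ptger4, Alox5ap and Ltc4s overlap other genes on the opposite strand, and Alox5 overlaps none.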

How the data were processed

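Droplet-based single-cell libraries (Chromium 3' v3.1 kit) were made from CD45+ cells of MC38 tumors. The authors deposited raw counts of UMIs for every barcode, empty droplets included, on mm10. The submitters' processing notes name Cell Ranger 6.0.1, whereas version 4 stands in the matrix headers.

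Cells were kept at 500 UMIs, 200 genes and 25% mitochondrial UMIs. Lineage markers and pathway lists, like the 9 genes, were chosen with earlier results of these data known, and the gate limits were set after the data had been seen. A gate asked for a minimum of marker UMIs per 10000 and of distinct markers (for example 60 and 3 of 10 for neutrophils, 20 and 2 of 9 for basophils). Monocytes and macrophages were split by whether the summed monocyte markers exceeded C1qa, C1qb and C1qc. Barcodes that passed more than 1 gate, or had 20 or more C1q UMIs per 10000 beside another gate, or, for T cells and NK cells, 3 or more UMIs and at least 6 per 10000 of 12 myeloid markers, were set aside as mixed. This was the only treatment of doublets in the values reported, and the study's doublet caller was not used.

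UMIs were summed per lineage and library. Intervals at 95% were exact Poisson for levels, exact conditional for ratios and exact Clopper-Pearson for shares, and they cover counting error only. The limit for a count of 0 was 3 counts. No test was run, since each group had 1 library. The rule named all 9 genes in every lineage, the listed pathway genes that were called, and for each of the 9 the 3 genes most alike, gate markers left out. Dpep2, whose symbol stood on 2 rows, was not used. Genes set apart in positive cells were chosen in 1 library and read in the other, 6 per gene. The calling rule was tried on simulated Poisson counts, which hold no variation between cells or tumors, so the trial covers counting error only. Alternatives concerned cell filters, doublet scores (Scrublet in scanpy 1.11.5), gates, scaling (edgeR 4.0.16 TMM and median ratios), free RNA, the pseudocount, cell weighting and thinning depth. Positions are those of GENCODE vM21 and promoters those of RefSeq, GRCm38.p6. Python 3.11.15, numpy 2.4.6, scipy 1.17.1 and pandas 2.3.3 were used.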

Additional observations from a re-analysis of the deposited data

Results flagged for a closer look

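Ptgs2 and Alox5ap were called in opposite directions in different lineages. For Ptgs2 the log2 ratio, IR over Control, was -1.33 in basophils, -1.43 in mature DCs and 1.43 in T cells. For Alox5ap it was -0.89 in mature DCs, 1.04 in T cells and 0.82 in NK cells. The difference between lineages was not tested, since each lineage had 1 library per group. The T cell and NK cell levels were low, and their largest single cells held 27.6% (Ptgs2, IR T cells) and 18.6% (Alox5ap, IR NK cells) of the UMIs.

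Barcodes with 100 UMIs or fewer, which hold free RNA and were used for no level reported, only for the estimate of free RNA and the alternative that subtracts it, carried 2 of the 9 genes at a higher level in IR than in Control with intervals that did not overlap. Ptgs2 had 154 CPM (143 to 165) in the Control library and 217 CPM (203 to 232) in the IR library, and Alox5ap 495 CPM (476 to 514) and 549 CPM (526 to 572). Among the other 7 genes Ptgs1 was lower there in IR (23.4 and 11.5 CPM).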

How the results depend on the processing

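No paired analysis was possible because each group had 1 library. With 5 pairs of a gene and a lineage called in each direction, the other filters and gates gave 5 or 6 higher and 5 lower, and the pathway lists 5 higher and 3 or 4 lower at other UMI limits. Of 526 alternative values over 69 results, 1 called pair turned sign: Ltc4s in T cells, -0.66 without the highest cell of each library, an alternative chosen after seeing the data. Ptgs2 in basophils was -1.10 under median-ratio scaling and -1.10 as a mean over cells. Ptgs2 and Alox5ap in mature DCs were -1.93 and -1.27 with free RNA subtracted, and Alox5ap there was -0.38 without the highest doublet scores and -0.50 as a mean over cells. Alox5ap in NK cells was 0.35, 1.75 and 0.21 without the highest doublet scores, with stricter gates and as a mean over cells, and in T cells 1.54 without cells holding a myeloid UMI, also chosen after seeing the data. Ptger4 in macrophages was -1.10 as a mean over cells. With 10 CPM added, Ptges in macrophages was 0.36 and Ltc4s in T cells 0.66. Where no value or the construction of an alternative shows it, the cause was not tested. Basophils (77172 and 181397 UMIs) and Control neutrophils (68564 UMIs) set the limits of depth, and their low-count genes could not be compared.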
